A study of Mus musculus with 6 samples.

Results

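Chemokines and inflammatory cytokines were read out in RNA from mouse stomach. The members are all gene symbols of the chemokine families Ccl, Cxcl and Cx3cl other than Ccl5, together with 18 named cytokine genes. The table held 34 such chemokines and 17 of the cytokines, 51 members among 23550 gene symbols, and the remaining cytokine, Ifng, was not analysed here. Levels are in FPKM, fragments per kilobase of gene scaled to the size of the library. A level of 1 FPKM or more in 3 or more libraries was reached by 29 of the 51 members, 19 chemokines and 10 cytokines, and 21 members reached it in every library. These 29 were tested, and the other 22 are described by their reads.

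The series asked how Riclin, a soluble dietary fibre, acts on the defence barrier of the stomach lining. Saline-gavaged mice gave 3 libraries (replicates 1, 2 and 4), and mice gavaged with Riclin at 20 mg per kg gave the other 3 (replicates 2, 3 and 4). The treatment label of the saline samples carries the same 20 mg per kg. Values by library follow these replicate orders. Gavage went on for 14 days in an experiment with 20 mice. The design of the series also gives a fast from food of 24 h. The sources used here do not state strain, age or sex, nor whether these mice received the ethanol used in a separate injury experiment. The labels do not say that each library is a separate animal, so the tests measure the spread between libraries, which may in part be technical.

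Chemokines are small secreted proteins that bind receptors on white blood cells and set where those cells go. Some are made steadily and place lymphocytes and macrophages in a healthy mucosa, and others are switched on by microbes or injury through the transcription factor NF-kB or through interferons. The inflammatory cytokines act beside them: IL-1 and TNF start inflammation, IL-33 and TSLP are alarm signals of barrier cells, and IL-1RN, IL-10 and TGF beta restrain it.

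Promoter sequences are shown for 6 members that stand for these routes of induction. Of the 51 members 39 had a window in the RefSeq promoter table (GRCm38.p6), and the 250 bases before the start were searched on both strands. A form of the NF-kB site, the letters GGG, 2 bases of any kind and TTTCC, was found in 9 of the 39 members, 23.1%, against 1.65% of the 27025 genes of the table. The core of the interferon-stimulated response element, GAAA, 2 bases of any kind and GAAA, was in 3 members, Cxcl10, Cxcl14 and Ccl19, or 7.69%, against 3.46% of all genes. The gamma-activated site, TTC, 3 bases of any kind and GAA, was in 4 members, Ccl17, Cxcl14, Lta and Ltb. That was 10.3%, against 8.13% of all genes. Capitals mark matches on either strand. A match is a run of letters, not measured binding, and other forms of the NF-kB site were not searched for.
Il6 (chr5:30012864-30013113, plus strand): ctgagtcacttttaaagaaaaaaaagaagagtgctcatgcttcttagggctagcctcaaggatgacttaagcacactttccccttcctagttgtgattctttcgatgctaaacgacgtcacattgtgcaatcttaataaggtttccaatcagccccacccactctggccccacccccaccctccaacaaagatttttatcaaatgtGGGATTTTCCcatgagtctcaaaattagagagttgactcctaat
Cxcl3 (chr5:90785851-90786100, plus strand): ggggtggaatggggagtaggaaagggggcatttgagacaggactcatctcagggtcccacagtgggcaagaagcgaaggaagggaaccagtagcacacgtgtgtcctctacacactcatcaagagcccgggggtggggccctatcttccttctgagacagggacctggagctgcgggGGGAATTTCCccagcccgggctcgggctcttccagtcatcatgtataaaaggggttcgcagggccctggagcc
Ccl9 (chr11:83578637-83578886, minus strand): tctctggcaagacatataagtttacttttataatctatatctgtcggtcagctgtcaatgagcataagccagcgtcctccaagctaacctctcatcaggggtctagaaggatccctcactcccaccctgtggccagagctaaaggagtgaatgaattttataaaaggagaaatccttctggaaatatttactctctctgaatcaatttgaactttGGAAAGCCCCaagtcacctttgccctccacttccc
Csf1 (chr3:107760470-107760719, minus strand): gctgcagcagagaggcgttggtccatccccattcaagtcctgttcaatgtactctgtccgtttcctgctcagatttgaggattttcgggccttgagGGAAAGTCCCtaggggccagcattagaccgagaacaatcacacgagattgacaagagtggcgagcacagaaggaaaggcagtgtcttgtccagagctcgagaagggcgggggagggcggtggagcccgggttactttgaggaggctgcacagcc
Cxcl10 (chr5:92348890-92349139, minus strand): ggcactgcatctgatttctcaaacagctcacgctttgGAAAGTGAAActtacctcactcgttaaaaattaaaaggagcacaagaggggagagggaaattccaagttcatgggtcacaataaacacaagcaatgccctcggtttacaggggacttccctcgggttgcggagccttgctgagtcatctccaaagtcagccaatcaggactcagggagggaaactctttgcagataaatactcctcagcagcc
Cxcl9 (chr5:92328080-92328329, minus strand): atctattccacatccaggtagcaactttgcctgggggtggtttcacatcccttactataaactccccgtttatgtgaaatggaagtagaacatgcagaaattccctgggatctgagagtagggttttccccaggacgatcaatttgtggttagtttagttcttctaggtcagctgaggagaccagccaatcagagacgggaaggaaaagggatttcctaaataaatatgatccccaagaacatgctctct
The 4 windows with the NF-kB letters belong to genes at very different levels. Il6 and Cxcl3 had 10 and 9 reads over all 6 libraries, whereas Ccl9 had 2175 and Csf1 4800. The other members with those letters were Cxcl1, Cxcl2, Ccl20, Il1rn and Ltb. Cxcl10 and Cxcl9 are neighbours on chromosome 5, and of these 6 windows only that of Cxcl10 held the interferon core.

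The libraries held 30884067 to 40050267 reads, recovered from the steps of the FPKM values, and the 51 members together took 0.0518 to 0.0699% of them. Markers of gastric mucosa (Atp4a, Atp4b, Muc5ac, Gkn1, Tff1, Tff2, Cblif and Pgc) were above 0 in every library. Other tissue differed between libraries: 19 pancreatic acinar genes summed to 263 FPKM in Riclin replicate 3, 38161 in saline replicate 1 and 99285 to 159193 elsewhere. The antral markers Gast and Pdx1 summed to 683 to 1043 FPKM in saline, 393 to 424 in Riclin replicates 2 and 3, and 4.55 in Riclin replicate 4. Gast made up most of the larger sums. Pdx1 measured 6.51 to 8.48 FPKM in saline, 3.85 and 4.29 in Riclin replicates 2 and 3, and 1.93 in Riclin replicate 4. In bulk RNA, fewer cells of a type and less RNA per cell cannot be told apart.

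No member differed between Riclin and saline past the adjusted threshold. By limma, fitted on 11738 genes, 0 of the 29 tested members had a Benjamini-Hochberg adjusted p under 0.05 (0% of all tested genes did), and the smallest was 0.778. An unadjusted p under 0.05 was found for 3 members, 10.3% of those tested, where 5.9% of all tested genes had one. These were Il33, with a higher mean in Riclin, and Ltb and Cxcl13, with lower means. The voom fit on recovered reads also put these 3 members and no other under 0.05, where 6.32% of all genes were, and called 0 members after adjustment. Cxcl13 was above 0.05 with median-of-ratios or upper-quartile scaling and without the filter, Il33 with acinar genes removed, and Ltb and Cxcl13 with a robust variance prior. Each of the 3 was above 0.05 in at least 1 fit that left out a single library, and also when saline replicate 1 and Riclin replicate 3 were left out together. The log2 fold change was above 0 for 16 members and below 0 for 13, where 61.3% of all tested genes were above 0, with a median of 0.02 beside 0.04 over all tested genes. Groups did not overlap in 1 tested member, Ccl11, or 3.45% of them, where 11.2% of all tested genes had no overlap (8.14% higher and 3.02% lower in Riclin).

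**Figure D1:**
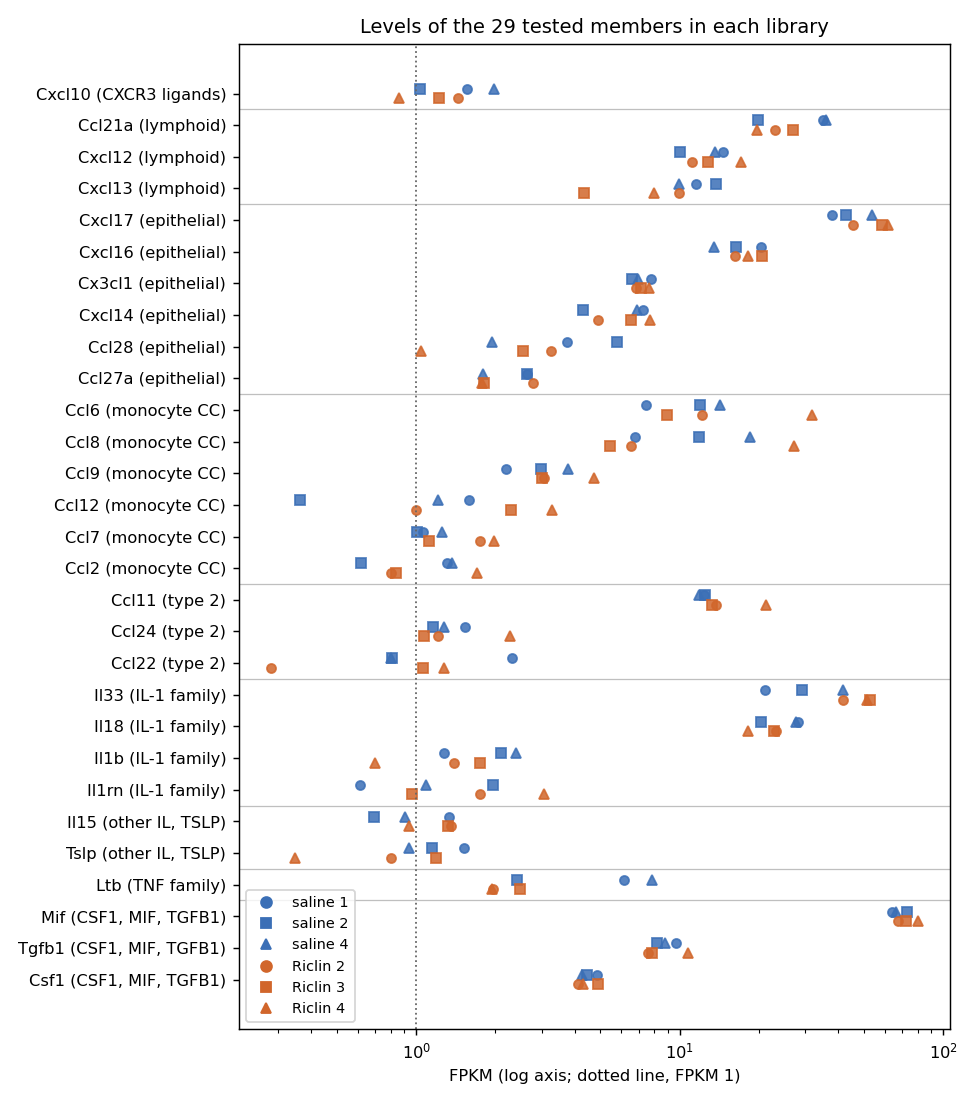
FPKM of each of the 29 tested members in each library, on a log axis, with the groups in 2 colours and 1 symbol per replicate. Mif, Cxcl17, Il33 and Ccl21a lie highest, and Ccl6 and Ccl8 reach 31.7 and 27.1 FPKM in Riclin replicate 4.

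A few members carried most of the signal, and 10 had a mean of at least 10 FPKM. The highest was Mif, a widely expressed cytokine that binds CD74. It measured 63.9, 72.7 and 66.0 FPKM in saline and 67.3, 72.0 and 80.0 with Riclin. The groups overlapped, with a log2 fold change of 0.11 (SE 0.119). With 1 library left out it ranged from 0.05 (without Riclin replicate 4) to 0.17 (without Riclin replicate 2). Next came Cxcl17, a chemokine of mucosal epithelium, at 37.8, 42.7 and 53.6 FPKM in saline and 45.6, 58.6 and 61.7 with Riclin. Saline replicate 4 lay above Riclin replicate 2, and the log2 fold change was 0.30 (SE 0.170, limma adjusted p = 0.843), with 0.19 without saline replicate 1. In every library Mif lay above Cxcl17 and Cxcl17 above Il33, while the order of Il33 and Ccl21a changed between libraries.

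Il33 encodes an alarm cytokine stored in the nuclei of epithelial, endothelial and stromal cells and released when they are damaged. It lies on the plus strand of chromosome 19 from 29925114 to 29960718 (GRCm38). It measured 21.1, 29.03 and 41.8 FPKM in saline and 41.8, 52.7 and 51.2 with Riclin. Saline replicate 4 and Riclin replicate 2 were at the same level to 3 digits, so the groups touched. The means were 30.7 ± 10.5 and 48.6 ± 5.90 FPKM (SD, n = 3 each), 1.59-fold higher in Riclin. The log2 fold change was 0.69 (SE 0.232, limma adjusted p = 0.778). It was 0.46 without saline replicate 1, the lowest library, and 0.40 without saline replicate 1 and Riclin replicate 3 together. With pancreatic acinar genes removed and the libraries rescaled it was 0.62, with an unadjusted p above 0.05. Forestomach squamous markers (Krt5, Krt14, Krt6a, Krt13, Ivl and Trp63) summed to 50.04, 168 and 125 FPKM in saline and 219, 216 and 171 with Riclin. The sums had no overlap between groups, and none of the 6 was at 0. Krt14 and Krt6a also had no overlap, but Krt13, Krt5, Trp63 and Ivl overlapped. Krt13, the largest term, measured 112 FPKM in saline replicate 2 and 107 in Riclin replicate 4. The part of squamous tissue in the Il33 result was not tested. Il1rl1, which encodes the IL-33 receptor, stayed at 0.408 to 1.38 FPKM and was highest in Riclin replicate 4.

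The rest of the IL-1 family gave mixed directions. Il18, a cytokine that epithelial cells make steadily and that caspase-1 activates, measured 28.1, 20.4 and 27.7 FPKM in saline and 23.3, 22.8 and 18.2 with Riclin, a log2 fold change of -0.23 (SE 0.157) that ranged from -0.37 (without saline replicate 2) to -0.12 (without Riclin replicate 4) with 1 library left out. Il1b, the main secreted IL-1, measured 1.28, 2.10 and 2.40 FPKM in saline and 1.39, 1.75 and 0.697 with Riclin, a log2 fold change of -0.37 (SE 0.216). That was -0.17 without Riclin replicate 4 and -0.69 without saline replicate 1 and Riclin replicate 3. Il1rn, which blocks the IL-1 receptor, measured 0.614, 1.95 and 1.09 FPKM in saline and 1.75, 0.961 and 3.06 with Riclin. Its log2 fold change of 0.38 (SE 0.299) was 0.11 without Riclin replicate 4. All 3 of these overlapped between groups. Il1a, an IL-1 that squamous and other epithelial cells hold inside, stayed under the filter, with 18, 13 and 4 reads in saline and 25, 55 and 33 with Riclin. Scaled for length and depth, it measured 0.235, 0.183 and 0.0656 FPKM in saline and 0.340, 0.696 and 0.440 with Riclin, so every Riclin library lay above every saline library. Without the filter, limma gave Il1a a log2 fold change of 0.36 (adjusted p = 0.875). The squamous sums also had no overlap between groups, though Krt13, Krt5, Trp63 and Ivl overlapped. The part of squamous tissue in the Il1a values was not tested.

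Ltb, the membrane partner of lymphotoxin, is made by lymphocytes and maintains lymphoid tissue. It lies on chromosome 17 from 35194439 to 35196320, beside Tnf and Lta. Ltb measured 6.16, 2.41 and 7.87 FPKM in saline and 1.96, 2.49 and 1.95 with Riclin. Saline replicates 1 and 4 were high, and saline replicate 2 lay within the Riclin range. The means were 5.48 ± 2.79 and 2.13 ± 0.307 FPKM (SD, n = 3 each), 2.57-fold lower in Riclin. The log2 fold change was -0.94 (SE 0.319, limma adjusted p = 0.778). It was -1.35 without saline replicate 2 and -0.66 without saline replicate 4. The B cell markers Cd79a, Cd79b and Ms4a1 had the same high libraries: they summed to 21.0, 3.22 and 20.2 FPKM in saline and 3.10, 4.29 and 2.04 with Riclin, with none of the 3 at 0. The 5 listed T cell markers summed to 4.32 to 12.4 FPKM in saline and 2.005 to 3.16 with Riclin, though Cd4 overlapped between groups. The part of these cells in the Ltb result was not tested.

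Cxcl13, which draws B cells into follicles through CXCR5, gave a different library pattern. It measured 11.6, 13.8 and 9.98 FPKM in saline and 9.98, 4.34 and 7.99 with Riclin. Saline replicate 4 and Riclin replicate 2 were equal to 3 digits, and Riclin replicate 3 was lowest. The means were 11.8 ± 1.91 and 7.44 ± 2.86 FPKM (SD, n = 3 each), 1.58-fold lower in Riclin. The log2 fold change was -0.65 (SE 0.255, limma adjusted p = 0.806), and -0.35 without Riclin replicate 3. Unlike Ltb, Cxcl13 was highest in saline replicate 2, where the B cell sum was 3.22 FPKM. The part of B cells in the Cxcl13 values was not tested.

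The CCR7 ligands guide lymphocytes and dendritic cells to lymphoid tissue, and both were highest in saline replicates 1 and 4. Ccl21a measured 35.1, 19.8 and 36.1 FPKM in saline and 23.1, 27.0 and 19.6 with Riclin, a log2 fold change of -0.33 (SE 0.234). Dropping saline replicate 2, its lowest saline library, gave -0.61, whereas dropping saline replicate 1 or 4 gave -0.21 or -0.19. Near-identical copies of Ccl21a exist, so its reads may be split or shared among them. Ccl19 had 70, 0 and 24 reads in saline and 1, 0 and 9 with Riclin. The 0 reads allow up to 0.147 FPKM in saline replicate 2 and 0.132 in Riclin replicate 3, counting 3 reads as the limit. The gene of their receptor, Ccr7, measured 2.23, 0.450 and 2.46 FPKM in saline and 0.340, 0.657 and 0.573 with Riclin. Markers of high endothelial venules, the vessels through which lymphocytes enter lymph nodes, were Madcam1, Glycam1 and Chst4. They summed to 10.0 to 12.1 FPKM in saline replicates 1 and 4 and 1.48 to 5.12 in the other libraries. Glycam1 followed this pattern, at 7.61 and 4.50 FPKM in saline replicates 1 and 4. Elsewhere it was at most 0.201, and 0 in Riclin replicate 4. Madcam1 did not follow it and was highest in saline replicate 2, at 1.37 FPKM. Chst4 was higher in Riclin replicate 3, at 4.04 FPKM, than in saline replicate 1, at 3.37. The part of these vessels in the values of both ligands was not tested. Cxcl12, a stromal chemokine that retains CXCR4-bearing cells, measured 14.6, 9.99 and 13.6 FPKM in saline and 11.1, 12.8 and 17.0 with Riclin, a log2 fold change of 0.09 (SE 0.186). Its receptor genes Cxcr4 and Ackr3 had log2 fold changes of -0.07 and -0.11, with standard errors of 0.184 and 0.134.

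**Figure D2:**
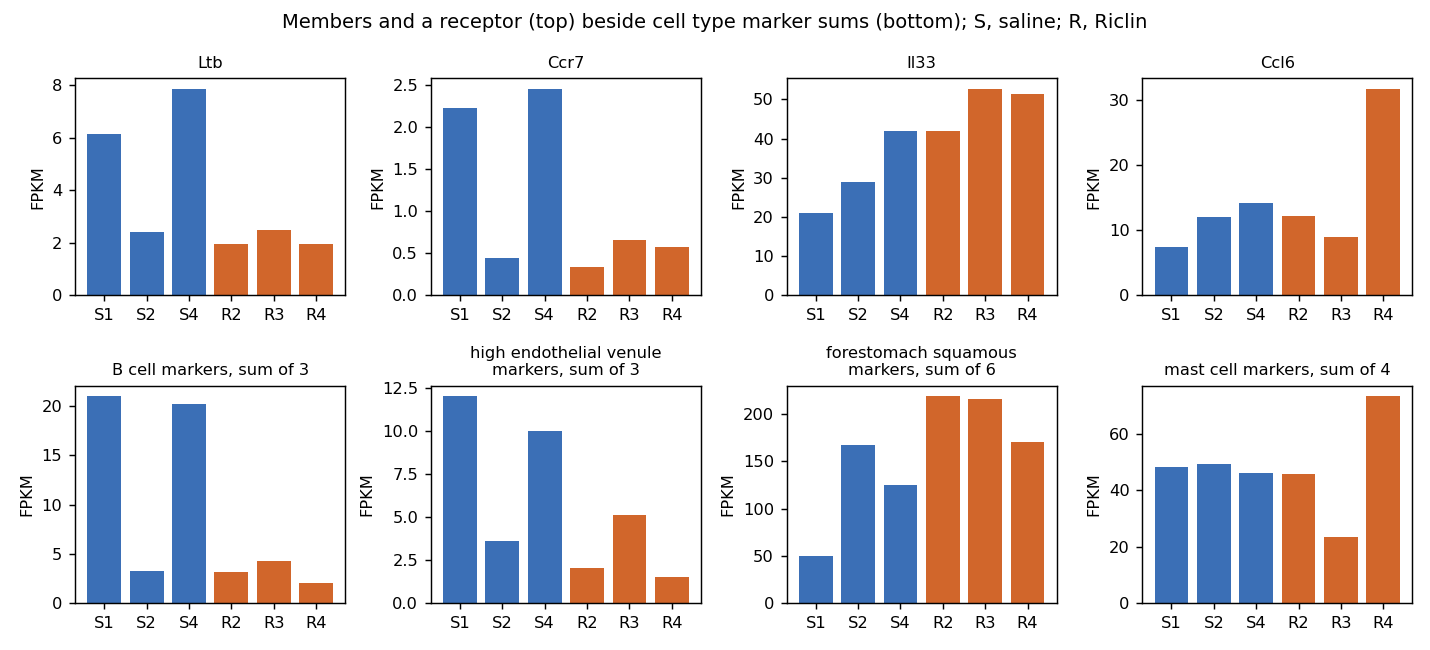
FPKM by library for Ltb, Ccr7, Il33 and Ccl6 in the upper row, with summed FPKM of cell type markers in the lower row (bars from 0, 1 per library). Ltb and Ccr7 are high in saline replicates 1 and 4, as is the B cell sum at 21.0 and 20.2 FPKM, and Ccl6 is high in Riclin replicate 4.

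The CC chemokines that attract monocytes and macrophages were set apart by 1 library. All 6 tested members of this role (Ccl2, Ccl6, Ccl7, Ccl8, Ccl9 and Ccl12) were highest in Riclin replicate 4, and the 8 listed members summed to 71.0 FPKM there against 20.6 to 41.2 in the other 5 libraries. Ccl6, made by macrophages and other myeloid cells, measured 7.47, 12.0 and 14.3 FPKM in saline and 12.2, 8.94 and 31.7 with Riclin. That library was 2.23-fold above the next. The log2 fold change of Ccl6 was 0.45 (SE 0.426) with all libraries and -0.05 without Riclin replicate 4. Ccl8, a further attractant of this family, measured 6.796, 11.8 and 18.5 FPKM in saline and 6.51, 5.42 and 27.1 with Riclin. Its log2 fold change was -0.17 (SE 0.567), and -0.85 without that library. Both remaining Riclin values of Ccl8 then lay below all 3 saline values.

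Ccl2, Ccl7, Ccl11, Ccl12 and Ccl8 lie in 1 cluster on chromosome 11 between 82035571 and 82116799, and Ccl9, Ccl6, Ccl3 and Ccl4 in another between 83572919 and 83664683. Ccl2, the main monocyte attractant, measured 1.31, 0.620 and 1.37 FPKM in saline and 0.799, 0.836 and 1.70 with Riclin, a log2 fold change of 0.003 (SE 0.210) whose sign changed with the scaling. Ccl12, a close relative of Ccl2, measured 1.58, 0.363 and 1.21 FPKM in saline and 1.002, 2.28 and 3.29 with Riclin, a log2 fold change of 0.62 (SE 0.321, limma adjusted p = 0.833). It was 0.35 when saline replicate 2 was dropped and 0.37 when Riclin replicate 4 was. For Ccl7 and Ccl9 the log2 fold changes were 0.30 and 0.21, and 0.20 and 0.04 without Riclin replicate 4. Ccl3 and Ccl4, which draw monocytes and T cells, gave few reads. Ccl3 had 5, 1 and 5 reads in saline and 0, 12 and 15 with Riclin. Ccl4 had 1, 10 and 13 reads in saline and 4, 0 and 0 with Riclin.

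Ccl11, or eotaxin, which draws eosinophils through CCR3, was the tested member whose groups did not overlap. It measured 12.3, 12.5 and 11.9 FPKM in saline and 13.7, 13.2 and 21.3 with Riclin. Riclin replicate 4 stood well above the rest, and the other Riclin libraries lay just above saline. The means were 12.2 ± 0.329 and 16.1 ± 4.56 FPKM (SD, n = 3 each). The log2 fold change was 0.34 (SE 0.175, limma adjusted p = 0.831), and 0.13 without Riclin replicate 4. Ccl24, a further eotaxin, was also highest there, at 2.26 FPKM against 1.07 to 1.54 elsewhere. The gene of their receptor, Ccr3, measured 2.31 FPKM in Riclin replicate 4 and 0.332 to 1.03 elsewhere. Ccl22, a dendritic cell chemokine for CCR4, was highest in saline replicate 1, at 2.32 FPKM, and measured 0.282 to 1.28 elsewhere.

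Riclin replicate 4 was the highest library for 14 of the 29 tested members and the lowest for 8, where 12.9% of all tested genes were highest and 16.2% lowest in it. Mast cell markers (Cpa3, Kit, Mcpt1 and Mcpt2, of which Kit also marks pacemaker cells of the gut wall) summed to 73.4 FPKM there and 23.3 to 49.2 elsewhere. Mcpt1, Mcpt2 and Kit were highest there, but Cpa3 was not, at 3.62 FPKM against 3.76 to 6.09 in saline. Of the 5 macrophage markers, Cd68, Adgre1 and Csf1r were highest there and Mrc1 and Lyz2 were not. The sum of the 5 was 167 FPKM, within the 142 to 228 of the others. That library also held the lowest antral sum. The part of these cells and regions in the high chemokine values was not tested.

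**Figure D3:**
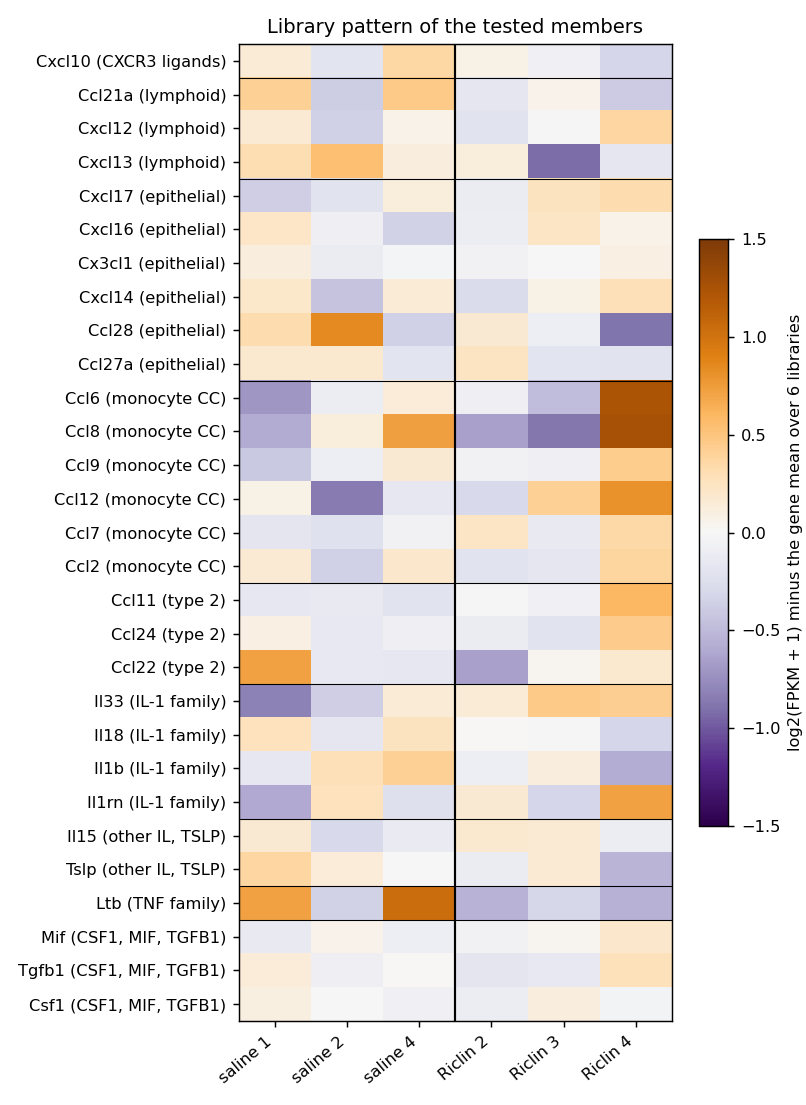
Each row is a tested member and each column a library; colour gives log2(FPKM + 1) minus the mean of that gene over the 6 libraries. The 6 monocyte CC chemokines, Ccl11 and Ccl24 are highest in Riclin replicate 4, while Ltb is high in saline replicates 1 and 4.

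The interferon-induced chemokines had lower means in Riclin. Cxcl9 and Cxcl10 call T cells and natural killer cells through CXCR3, and Cxcl9 is induced mainly by interferon gamma. Cxcl10 measured 1.57, 1.03 and 1.97 FPKM in saline and 1.44, 1.22 and 0.860 with Riclin, a log2 fold change of -0.21 (SE 0.170, limma adjusted p = 0.884). Dropping saline replicate 2 made it -0.35, whereas dropping saline replicate 4 gave -0.08 and dropping Riclin replicate 4 gave -0.10. Cxcl9, under the filter, had 175, 80 and 215 reads in saline and 68, 85 and 51 with Riclin. Scaled for length and depth, it measured 1.55, 0.764 and 2.40 FPKM in saline and 0.628, 0.731 and 0.462 with Riclin. Each Riclin library of Cxcl9 lay below each saline library, though saline replicate 2 and Riclin replicate 3 were close. Without the filter, limma gave Cxcl9 a log2 fold change of -0.63 (adjusted p = 0.892). The gene of their receptor, Cxcr3, measured 0.672, 0.362 and 1.67 FPKM in saline and 0.167, 0.202 and 0.768 with Riclin. The T cell sum had no overlap between groups. Of its markers Cd4 did overlap, at 1.34 to 2.61 FPKM in saline and 0.789 to 1.88 with Riclin. The part of T cells in the Cxcl9 values was not tested.

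Of 18 interferon-stimulated genes tested, 12 had an unadjusted p under 0.05 with a higher mean in Riclin (4.07% of all tested genes did), 0 had one with a lower mean, and 0 passed after adjustment. The median log2 fold change of the 18 was 0.86. All 18 were highest in Riclin replicate 3, the library nearly without acinar RNA, in which 35.6% of all tested genes were highest and which correlated with the others at 0.927 to 0.947 across genes on the log2 scale, against 0.972 to 0.986 among the other 5. Without that library 11 had an unadjusted p under 0.05 with a higher mean in Riclin (2.4% of all tested genes did) and 2, Rsad2 and Gbp2, with a lower one (3.43%), and the median was 0.62. Bst2, which tethers budding viruses, measured 49.4, 58.2 and 53.3 FPKM in saline and 119, 196 and 132 with Riclin, a log2 fold change of 1.43 (SE 0.193, limma adjusted p = 0.289). The transcription factor gene Irf7, Ifi44 and the RNA sensor gene Ddx58 had log2 fold changes of 1.40, 1.38 and 1.01. The difference between these genes and Cxcl9 or Cxcl10 was not itself tested.

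Among chemokines of epithelium, 4 of 6 tested members had a log2 fold change above 0, close to the 61.3% of all tested genes. An unadjusted p under 0.05 was found for 0 of the 6, where 5.9% of all tested genes had one. Cxcl16, a membrane-bound ligand of CXCR6, measured 20.4, 16.4 and 13.5 FPKM in saline and 16.2, 20.5 and 18.2 with Riclin, a log2 fold change of 0.13 (SE 0.160). Cx3cl1, a tethered ligand of the macrophage receptor CX3CR1, stayed at 6.57 to 7.77 FPKM in all 6 libraries, with a log2 fold change of 0.02 (SE 0.0998) whose sign changed with the scaling. Ccl28, which guides IgA plasma cells to mucosae, measured 3.73, 5.78 and 1.94 FPKM in saline and 3.24, 2.55 and 1.04 with Riclin. Its mean was 1.68-fold lower in Riclin, with a log2 fold change of -0.54 (SE 0.352, limma adjusted p = 0.851). That was -0.23 without Riclin replicate 4, the lowest library. Dropping saline replicate 2 or 4 gave -0.25 or -0.85. The 2 listed plasma cell markers summed to 14.5 to 21.5 FPKM in saline and 5.15 to 8.91 with Riclin, with no overlap. Jchain made up most of these sums. Mzb1 overlapped between groups, at 0.521 to 2.21 FPKM in saline and 0.581 to 1.45 with Riclin. The part of plasma cells in the Ccl28 values was not tested.

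Ccl25, a chemokine of small intestine and thymus, had 45, 38 and 201 reads in saline and 42, 53 and 68 with Riclin. Saline replicate 4, at 2.12 FPKM, stood above the 0.344 to 0.582 of the others. Intestinal markers (Alpi, Fabp2, Vil1 and Lct) summed to 135 FPKM in that library and 19.9 to 65.8 in the others. Alpi and Fabp2 were highest there, at 42.0 and 54.3 FPKM. Vil1 was not, at 39.1 FPKM against 39.2 in Riclin replicate 3, and Lct was at most 0.0629 FPKM in any library. The part of intestinal tissue in the Ccl25 values was not tested. Ccl20, which calls CCR6-bearing cells to epithelium, had 9, 19 and 29 reads in saline and 19, 31 and 0 with Riclin. Its 0 reads in Riclin replicate 4 allow up to 0.0984 FPKM.

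**Figure D4:**
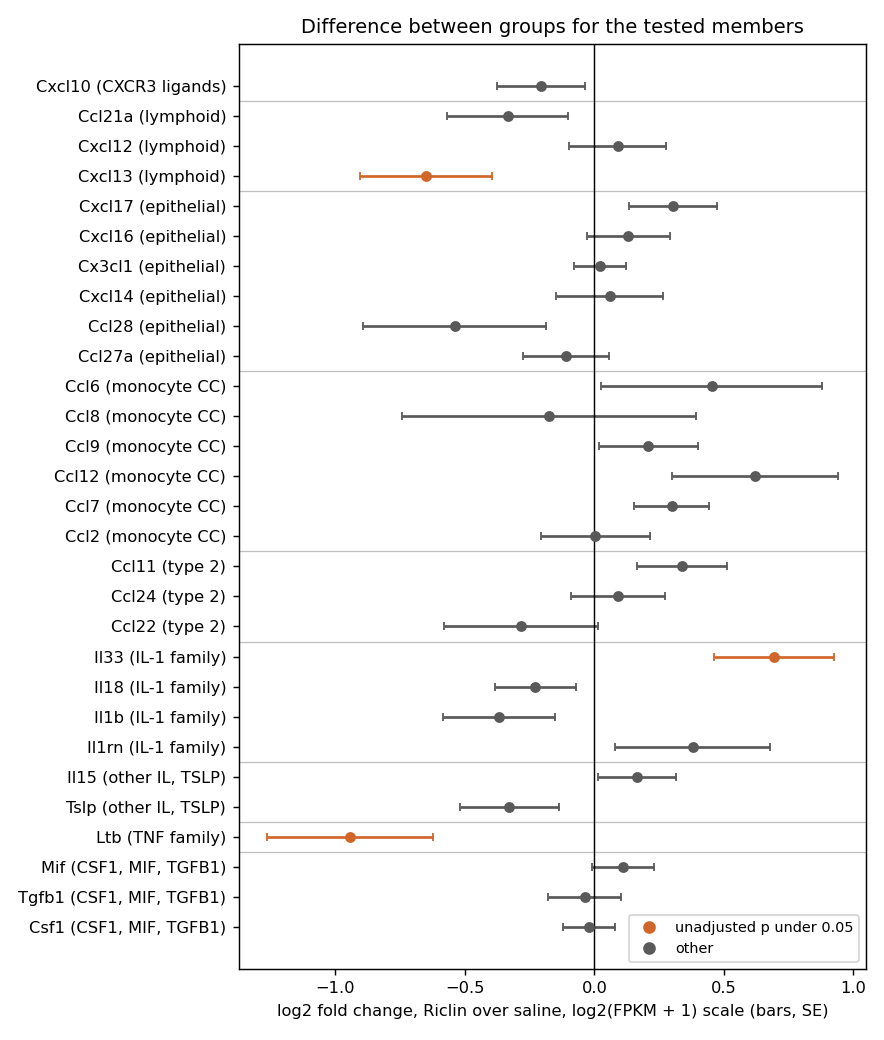
Log2 fold change of each tested member, Riclin over saline, on the log2(FPKM + 1) scale, with bars of 1 SE. Il33, Ltb and Cxcl13, in orange, had an unadjusted p under 0.05, and 0 members passed after adjustment.

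Il6, Tnf, Il10, Csf2 and the neutrophil-attracting CXC chemokines were low in both groups. Il6, Il10 and Csf2 were near the limit of detection, whereas Tnf, Cxcl1 and Cxcl15 had reads in every library. Of the 22 members under the filter, 18 stayed under 1 FPKM in every library and 10 had fewer than 20 reads over all 6 libraries. Among these 22, Il1a, Cxcl9 and Cxcl2 had no overlap between groups. The share without overlap was counted over tested genes only, where it was 11.2%, and not over genes under the filter. Il6, an acute-phase cytokine, had 5, 0 and 0 reads in saline and 0, 4 and 1 with Riclin. Tnf, an early inflammatory cytokine of macrophages, had 12, 4 and 17 reads in saline and 9, 8 and 8 with Riclin, or 0.0672 to 0.333 FPKM. Il10, which restrains macrophages, had 7 reads in all, and Csf2, a myeloid growth factor, had 1. The 5 neutrophil-attracting CXC chemokines summed to 0.585 to 0.827 FPKM in saline and 0.355 to 0.725 with Riclin. Neutrophil markers (S100a8, S100a9, Cd177, Csf3r and Ly6g) summed to 4.39 to 8.17 FPKM in saline and 9.10 to 13.0 with Riclin, with no overlap. S100a8 and Cd177 also had no overlap, whereas S100a9 and Csf3r overlapped, and Ly6g was at 0 in 5 libraries. S100a9, the largest term, measured 5.72 FPKM in saline replicate 2 and 3.34 in Riclin replicate 3. The part of neutrophils in the values of these chemokines was not tested. Cxcl1 had 16, 7 and 8 reads in saline and 8, 15 and 10 with Riclin. Cxcl2 had 8, 4 and 1 reads in saline and 1, 1 and 0 with Riclin. Scaled for depth, each Riclin library of Cxcl2 lay below each saline library, at 15 reads in all, and without the filter limma gave it a log2 fold change of -0.12 (adjusted p = 0.892). For these 22 members, 3 reads, the limit that 0 reads allow, came to at most 0.344 FPKM in any library. Il11, a cytokine of stromal cells, had 13, 1 and 14 reads in saline and 19, 16 and 56 with Riclin, and Riclin replicate 4 was again highest.

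**Figure D5:**
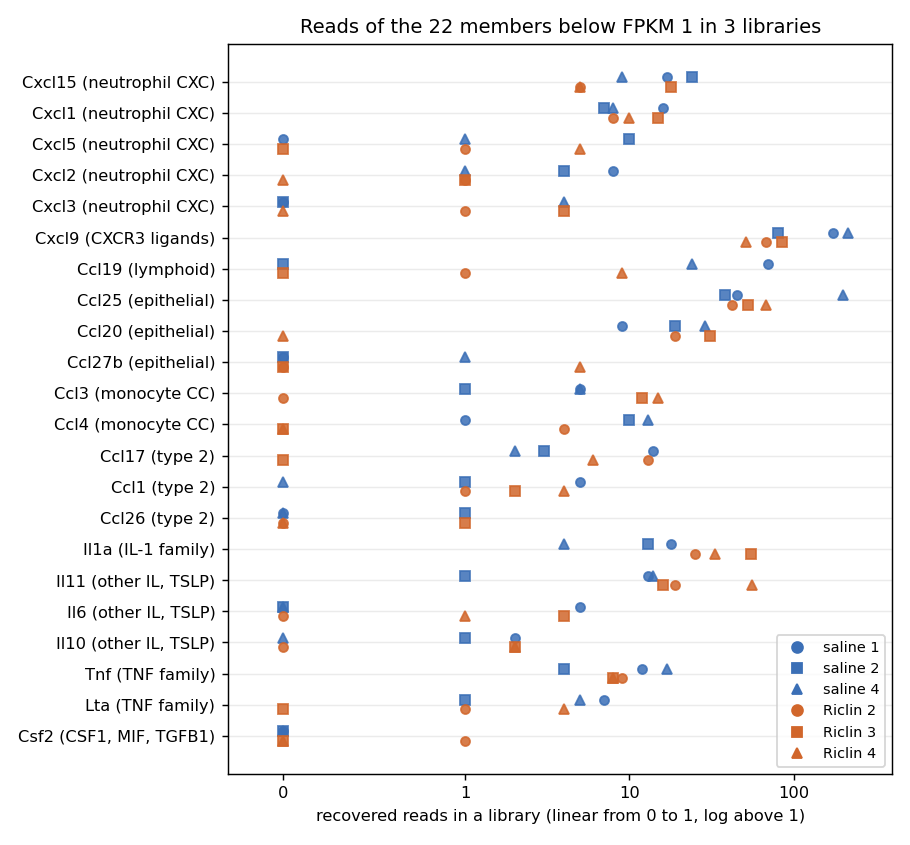
Recovered reads in each library for the 22 members that did not reach FPKM 1 in 3 libraries, on an axis that is linear from 0 to 1 and logarithmic above. Cxcl9, Ccl25, Il1a and Il11 lead, while Il6, Csf2, Il10, Cxcl3 and Ccl26 lie between 0 and 5 reads in every library.

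The growth factors and TGF beta gave small log2 fold changes. Csf1, which keeps tissue macrophages alive, measured 4.85, 4.46 and 4.25 FPKM in saline and 4.11, 4.91 and 4.32 with Riclin, a log2 fold change of -0.02 (SE 0.102). Tgfb1, which restrains immune cells and shapes matrix, measured 9.72, 8.24 and 8.80 FPKM in saline and 7.61, 7.85 and 10.8 with Riclin, a log2 fold change of -0.04 (SE 0.141). Il15, which keeps intraepithelial lymphocytes, had a log2 fold change of 0.16 (SE 0.151) that ranged from 0.06 (without saline replicate 2) to 0.29 (without saline replicate 1) with 1 library left out. Tslp, an epithelial alarm cytokine, measured 1.52, 1.15 and 0.943 FPKM in saline and 0.806, 1.19 and 0.348 with Riclin, a log2 fold change of -0.33 (SE 0.193). That was -0.14 without Riclin replicate 4 and -0.49 without Riclin replicate 3. The groups overlapped in all 4.

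Receptors and signalling genes of the same pathways were counted from lists. Of 21 listed chemokine receptors 5 were tested, and 0 of them had an unadjusted p under 0.05, as did 0 of 19 tested cytokine receptors. Among all tested genes 5.9% had one. Il1r1, the IL-1 receptor gene, had a log2 fold change of -0.12 (SE 0.128). Among 17 tested NF-kB pathway and feedback genes, 0 had an unadjusted p under 0.05 with a higher mean in Riclin and 2 had one with a lower mean (1.83% of all tested genes did). Nfkbie, an inhibitor of NF-kB that NF-kB itself induces, measured 3.18, 3.07 and 3.03 FPKM in saline and 1.79, 1.78 and 2.09 with Riclin. Its groups were separate, with a log2 fold change of -0.50 (SE 0.0961, limma adjusted p = 0.424). Socs3, a brake on IL-6 signalling, had a log2 fold change of -0.36 (SE 0.150, limma adjusted p = 0.820). The best known inhibitor gene, Nfkbia, had a log2 fold change of -0.04 (SE 0.116). Among 8 tested genes that process cytokines, 1 had an unadjusted p under 0.05 with a higher mean in Riclin, where 4.07% of all tested genes did. This was Furin, which encodes a protease that matures TGF beta and other precursors. It measured 156, 73.3 and 94.9 FPKM in saline and 151, 174 and 149 with Riclin, with saline replicate 1 inside the Riclin range. Its log2 fold change was 0.61 (SE 0.258, limma adjusted p = 0.820), and 0.37 without saline replicate 2, with an unadjusted p then above 0.05.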

How the data were processed

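Stomach RNA was extracted with TRIzol and prepared with a VAHTS Universal V6 kit, per the labels' protocols. The submitters' processing notes name mm10 and Bowtie2. The counter, annotation and strand setting were not stated. The authors deposited FPKM values for 23550 symbols.

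Reads were recovered from FPKM ratios between libraries (relative tolerance 1e-09) for 23543 symbols, all 51 members included. Limits from reads cover counting error only. Genes with 1 FPKM in 3 libraries were compared on log2(FPKM + 1), which understates changes of low genes, by limma 3.58.1 (R 4.3.3) with a variance trend, two-sided, Benjamini-Hochberg adjusted over 11738 genes at 0.05. The scripts were tested on simulated data. N-fold values are ratios of mean FPKM. Positions are from GENCODE on GRCm38.

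Named members are those with an unadjusted p under 0.05 or without overlap, the 8 highest in mean, and always Cxcl1, Cxcl2, Cxcl9, Cxcl10, Ccl2, Ccl20, Ccl25, Ccl28, Cxcl12, Il1b, Il1rn, Il18, Il33, Tnf, Il6, Tgfb1 and Mif. Named pathway genes are up to 4 per list with an unadjusted p under 0.05, plus Cxcr4, Ackr3, Cxcr3, Il1r1 and Nfkbia. All others were named after their values were seen. A marker and a receptor of the lists are not reported here and entered no sum or count. Members and lists were chosen with earlier results of these data known. Alternatives tried: 0.1 as pseudocount, dropping the filter or raising it to 5 FPKM, other scalings, a robust variance prior, the replicate block, acinar genes removed, libraries left out, and voom on reads.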

Additional observations from a re-analysis of the deposited data

How the results depend on the processing

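The number of genes past the adjusted threshold was 0 under every setting except the robust variance prior, where it was 2, and leave-one-out fits, where it was 0 to 1 (1 without saline replicate 2). No member had an adjusted p under 0.05 under any alternative. Members with an unadjusted p under 0.05 numbered 1 with a robust variance prior (Il33) and 7 with the replicate block, and 2 to 5 when a library was left out (5 without Riclin replicate 3); the cause was not tested. Replicate numbers 2 and 4 occur in both groups, but the labels do not say that they pair animals. Deviations from the group means correlated at 0.222 for number 2 and 0.0109 for number 4. Between libraries of unlike numbers they correlated at -0.438 to 0.391. Because deviations within a group sum to 0, these values cannot decide pairing. The libraries were treated as sharing only a number. The replicate block compares the 4 libraries that remain without saline replicate 1 and Riclin replicate 3.

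Of 42 gene results over 16 alternatives, 26 kept their direction throughout, among them Il33, Ltb, Cxcl13, Ccl11 and 13 further members. With median-of-ratios, upper-quartile and acinar-removed scaling, Ccl2 turned to -0.016, -0.0090 and -0.026 and Cx3cl1 to -0.023, -0.0097 and -0.041, and Cxcl14 turned to -0.0016 with acinar genes removed. With the replicate block, and equally without saline replicate 1 and Riclin replicate 3, Ccl27a turned to 0.022, Tgfb1 to 0.083, Ackr3 to 0.026 and Il1r1 to 0.050. Over fits that left out 1 library, log2 fold changes ranged from -0.19 to 0.11 for Ccl2, -0.45 to 0.0084 for Ccl22, -0.11 to 0.21 for Ccl24, -0.053 to 0.81 for Ccl6, -0.85 to 0.22 for Ccl8, -0.027 to 0.080 for Cx3cl1, -0.070 to 0.22 for Cxcl12, -0.14 to 0.21 for Cxcl14, -0.0067 to 0.28 for Cxcl16, -0.082 to 0.024 for Csf1, -0.18 to 0.045 for Tgfb1, -0.27 to 0.087 for Cxcr4, -0.24 to 0.0018 for Ackr3 and -0.12 to 0.015 for Nfkbia.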
